A study of Mus musculus with 2 samples.

Results

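A group of 7 genes of the ventral telencephalon and of the interneurons born there was followed in the embryonic mouse cortex: Dlx2, Dlx5, Dlx6as1, Lhx6, Prox1, Nxph1 and Cxcr4. They were taken by symbol from the authors' deposited table, and all 7 had 1 row each among its 2381 rows. The table holds the gene loci that the authors called different between 2 RNA-seq libraries, so being listed, and the direction, had already chosen these genes: their differences are given as a description, with no test. The Trrap-deleted library came from cortex of genotype TrrapF/F NestinCre+, in which Cre driven by Nestin removes Trrap, a large adaptor shared by histone acetyltransferase complexes, from neural progenitors. The control library was entered as wild type, but its description gives TrrapF/+ NestinCre+, so it too carried Cre and 1 floxed allele. Both were taken at E14.5 on a B6/129 background. Each genotype had 1 library, so no value has a replicate error. The labels do not give the number or sex of the embryos or the borders of the dissected cortex. Fold changes and log2 ratios are Trrap-deleted over control.

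Cortical interneurons are not made in the cortex. In the mouse, GABAergic interneurons are born in the ganglionic eminences of the ventral telencephalon and migrate tangentially into the cortex, while its glutamatergic projection neurons arise from dorsal progenitors. Dlx homeobox genes drive this ventral programme, Lhx6 acts in cells of the medial eminence, and the chemokine receptor Cxcr4 keeps migrating interneurons in their streams. In a bulk sample of cortex, fewer cells of a type and less RNA per cell cannot be told apart.

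The promoters of Dlx2 and Dlx6as1 are shown because these were the genes whose start regions held a motif searched for here. RefSeq windows on GRCm38.p6, each running from 250 bases before to 50 bases after an annotated transcript start, were matched for 6 of the 7 genes, 10 windows in all. Dlx5 had no window and was not searched. RefSeq lists Dlx6as1 under the symbol Dlx6os1, with 2 starts. The capitals mark TAATTA, a core recognised by many homeodomain proteins, or CACGTG, an E-box. Each reads the same on both strands, and the marked motifs do not overlap. The motifs were chosen after the sequences and the results had been seen. The windows lie on the minus strand at chr2:71546705-71547004 for Dlx2, and at chr6:6869484-6869783 and chr6:6861634-6861933 for the first and second start of Dlx6as1.
Dlx2: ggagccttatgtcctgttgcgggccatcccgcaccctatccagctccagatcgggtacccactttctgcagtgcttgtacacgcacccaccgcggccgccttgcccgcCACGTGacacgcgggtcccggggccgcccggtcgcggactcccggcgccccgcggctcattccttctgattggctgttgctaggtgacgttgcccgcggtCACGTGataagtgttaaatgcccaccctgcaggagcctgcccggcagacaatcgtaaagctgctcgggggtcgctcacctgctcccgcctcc
Dlx6as1 first start: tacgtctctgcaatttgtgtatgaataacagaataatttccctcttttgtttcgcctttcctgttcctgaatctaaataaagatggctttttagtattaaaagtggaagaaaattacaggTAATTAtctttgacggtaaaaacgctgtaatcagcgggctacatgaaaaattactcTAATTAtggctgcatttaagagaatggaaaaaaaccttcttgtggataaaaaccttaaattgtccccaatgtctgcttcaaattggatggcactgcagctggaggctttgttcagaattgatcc
Dlx6as1 second start: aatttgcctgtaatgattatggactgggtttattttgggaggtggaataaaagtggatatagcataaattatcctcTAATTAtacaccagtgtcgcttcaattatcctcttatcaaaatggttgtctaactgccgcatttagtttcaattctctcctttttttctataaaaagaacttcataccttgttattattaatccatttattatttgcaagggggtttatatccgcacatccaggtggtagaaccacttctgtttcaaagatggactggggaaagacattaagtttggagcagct

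The Dlx2 window held CACGTG 2 times, first base 142 and 42 bases before the start, and no TAATTA. The first Dlx6as1 window held TAATTA 2 times, 130 and 74 bases before the start, and the second held it once, 174 bases before. The other 7 windows, those of Lhx6, Prox1, Nxph1 and Cxcr4, held neither motif. Of 32851 RefSeq windows of the same length, 5.29% held TAATTA at least once and 0.49% held it 2 or more times. CACGTG was in 7.15% of them, and 2 or more times in 0.594%. The Dlx6as1 windows were 35.7% and 35.3% G and C, against a median of 52.7% over all windows, and the Dlx2 window was 66.3%. A match describes these letters only and says nothing about a bound factor.

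As deposited, all 7 genes were lower in the Trrap-deleted cortex, each by at least 2-fold, and 5 of them by at least 4-fold. The directions held under the alternatives given below, but these fold counts did not hold under all of them. Of all 2381 rows, 42% were lower, 13.6% were lower by at least 2-fold and 2.06% by at least 4-fold; since the genes were chosen on this contrast, nothing is read from the difference between these shares. Their median log2 ratio was -2.15 (4.45-fold lower), beside a median of 0.54 over the 2376 rows with a value in both libraries. Among the 1097 rows whose control level lay between those of Dlx5 and Cxcr4, the lowest and highest of the 7, 33% were lower and 2.19% were lower by at least 4-fold. The ratios ranged from -2.61 for Dlx5 to -1.05 for Cxcr4. Levels below are in FPKM, fragment counts scaled to transcript length and sequencing depth, and so can be compared between genes.

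**Figure D1:**
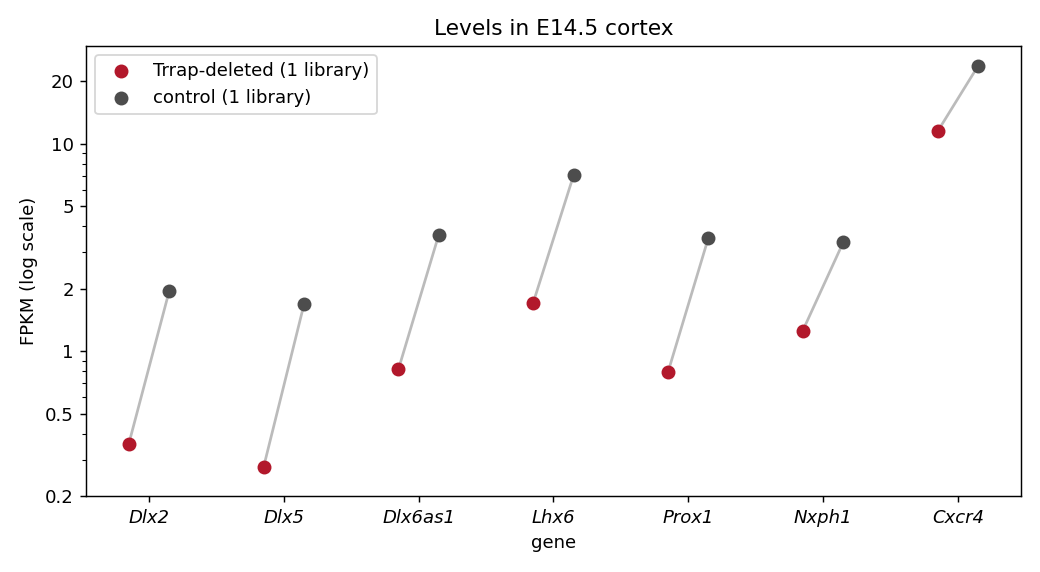
FPKM (log scale) of the 7 genes in E14.5 cortex; each point is 1 library, Trrap-deleted left and control right, and grey lines join the 2 libraries of a gene, with no error bars since there is 1 library per genotype. Every gene sits lower in the Trrap-deleted library, from 0.276 FPKM for Dlx5 to 11.5 FPKM for Cxcr4.

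As deposited, the Dlx transcripts had the ratios largest in size of the 7, with Dlx6as1 barely ahead of Prox1. This order did not hold after adding 1 FPKM to both libraries. Lhx6 then had the ratio largest in size (-1.57), with Dlx2 at -1.12 and Dlx5 at -1.07. Dlx2, a homeodomain factor of ventral progenitors, was at 0.358 FPKM in the Trrap-deleted cortex, against 1.95 FPKM in the control (5.46-fold lower, log2 ratio -2.45). Dlx5, which acts later in the same lineage, was at 0.276 FPKM in the Trrap-deleted cortex, against 1.68 FPKM in the control (6.09-fold lower, log2 ratio -2.61). Both were thus weak transcripts even in the control, and 18.3% and 16.4% of the control level was measured in the Trrap-deleted library. Dlx6as1 (Evf2), a long noncoding RNA made from the Dlx5 and Dlx6 locus, was at 0.817 FPKM in the Trrap-deleted cortex, against 3.65 FPKM in the control (4.47-fold lower, log2 ratio -2.16). As deposited, its value was the highest of the 3 Dlx transcripts in both libraries, but it may include reads of an overlapping gene, as given below.

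The authors' deposited table gave these 3 rows unequal q-values although their ratios were alike. Its q-value was 2.6e-08 for Dlx2 but 0.024 for Dlx5 and 0.0061 for Dlx6as1, and the first and last of these genes would remain listed at a q-value under 0.01 while Dlx5 would not. On mm9 the loci of Dlx6as1 (chromosome 6, 6758452 to 6821512) and Dlx5 (chromosome 6, 6827805 to 6832085) lie 6292 bases apart. The Dlx2 locus is on chromosome 2 (71381466 to 71384878). In GENCODE M21 the gene Dlx6, which encodes another homeodomain factor, overlaps 5235 bases of Dlx6as1 on the opposite strand and had no row of its own. No source used here says that strands were kept apart in counting, so Dlx6 reads may be part of the Dlx6as1 value, which is uncertain. The Dlx6as1 locus in the table, 63061 bases, is also longer than the 51404 bases annotated in GENCODE M21. Of 11 Dlx symbols and antisense RNAs looked for, these 3 were listed, all lower; Dlx1 and Dlx6, the partners of Dlx2 and Dlx5 in their gene pairs, were not listed.

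Lhx6 and Prox1, the other transcription factors, were lower to nearly the same degree. Lhx6, a LIM-homeodomain factor needed by parvalbumin and somatostatin interneurons of medial origin, was at 1.71 FPKM in the Trrap-deleted cortex, against 7.06 FPKM in the control (4.13-fold lower, log2 ratio -2.04). Its locus (chromosome 2, 35937407 to 35960928) is 23522 bases long in the table and 23456 in GENCODE M21, and no annotated gene overlaps it on the opposite strand. Prox1, a homeobox factor of interneurons from the caudal eminence and also of the dentate gyrus and of lymphatic endothelium, was at 0.793 FPKM in the Trrap-deleted cortex, against 3.53 FPKM in the control (4.45-fold lower, log2 ratio -2.15). The Prox1 locus in the table (chromosome 1, 191941911 to 192041155) spans 99245 bases, against 52680 annotated in GENCODE M21, where the antisense genes Prox1os and Gm28172 overlap it by 419 and 964 bases; its value is uncertain for the same reason as that of Dlx6as1. In the authors' deposited table the q-values were 6.4e-09 for Lhx6 and 4.6e-08 for Prox1. Of other lymphatic markers looked for, Lyve1, Flt4 and Pdpn were not listed. Of 13 hem and dentate symbols looked for, Wnt8b and Rspo2 were listed, both lower (log2 ratios -1.48 and -1.41). Which cells the Prox1 RNA came from was not tested.

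The secreted ligand and the receptor had the smallest ratios of the 7. Nxph1, a neurexophilin that binds alpha-neurexins and is made by interneurons, was at 1.26 FPKM in the Trrap-deleted cortex, against 3.35 FPKM in the control (2.67-fold lower, log2 ratio -1.41). Nxph1 (chromosome 6, 8898431 to 9200008) lies 2.07 megabases beyond Dlx5, and no listed gene lay within 1 megabase of it. Cxcr4, the receptor of the chemokine Cxcl12, was at 11.5 FPKM in the Trrap-deleted cortex, against 23.7 FPKM in the control (2.07-fold lower, log2 ratio -1.05). It had the highest level of the 7 in both libraries and accounted for the largest difference in FPKM, 12.2. Cxcr4 is also found outside the interneuron lineage, in Cajal-Retzius cells and blood cells among others. The authors' deposited table gave q-values of 0.00057 for Nxph1 and 0.00024 for Cxcr4. Without Cxcr4 and Nxph1, the ratios of the other 5 lay between -2.61 and -2.04.

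**Figure D2:**
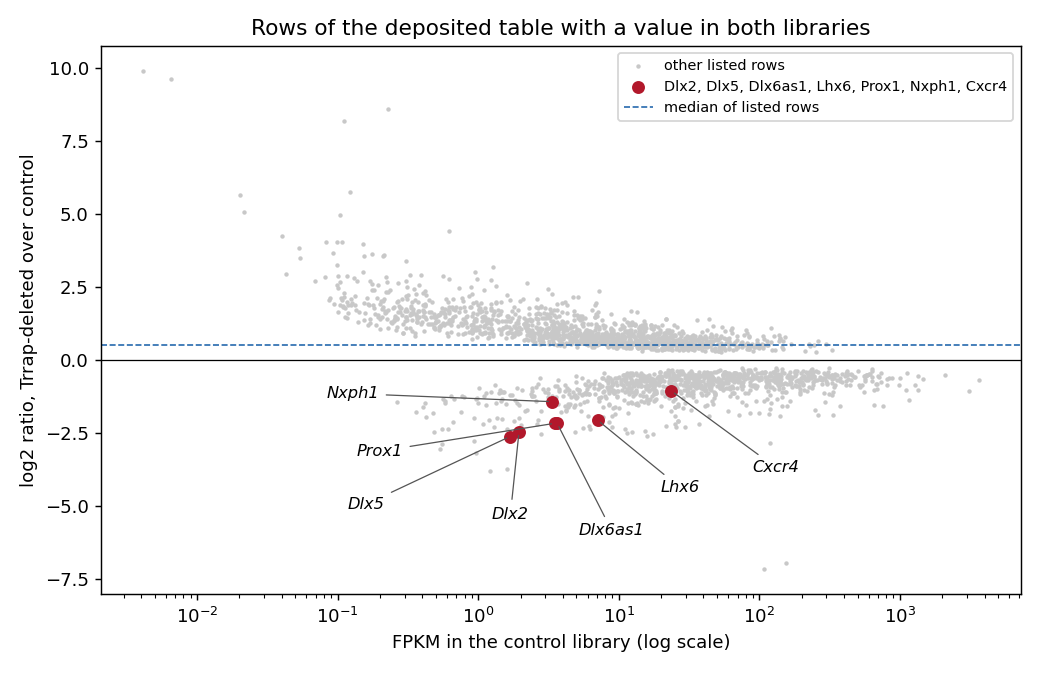
Log2 ratio of Trrap-deleted over control (vertical axis) against control FPKM (horizontal axis, log scale) for the 2376 rows with values in both libraries; grey points are other rows, red points the 7 genes, and the dashed line the median of 0.54. The 7 genes lie between -2.61 and -1.05, and rows near a ratio of 0 are missing because only loci called different by the authors are in the table.

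Few other regulators of the ganglionic eminences were listed, and they did not share a direction. Of 21 symbols for the medial eminence 4 were listed, Lhx6 among them, and of the 3 others 2 were lower and 1 was higher. Olig2, a factor of ventral progenitors and of the oligodendrocyte lineage, was at 0.111 FPKM in the Trrap-deleted cortex and 0.423 FPKM in the control. It was 3.81-fold lower. The Hedgehog effector Gli1 was higher, at 1.97 FPKM in the Trrap-deleted cortex and 0.578 FPKM in the control. Nkx2-1, Lhx8, Sox6 and Satb1 were not listed.

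Of 26 symbols for the lateral and caudal eminences 5 were listed, 2 lower and 3 higher. Prox1, described above, was among the lower ones. Pbx3, a homeodomain cofactor (9.84 FPKM in the Trrap-deleted cortex, 4.04 FPKM in the control), and Pou3f4, a POU-domain factor (5.21 FPKM in the Trrap-deleted cortex, 2.91 FPKM in the control), were among the higher ones. Gsx2, Sp8, Nr2f2 and Meis2 were not listed. A gene that is not listed may have missed the authors' threshold or may not have been expressed, and is never called unchanged here. It may also lie in a row naming several genes, or with no signal in the control or in the Trrap-deleted library. Such rows were not matched to the symbols.

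Markers of the GABA phenotype itself were mostly not listed. Of 24 symbols for GABA synthesis, release, uptake and receptors 3 were listed and all 3 were higher, beside 58% of all rows. Slc12a5 (KCC2), the chloride exporter of maturing neurons, was at 14.1 FPKM in the Trrap-deleted cortex, against 2.23 FPKM in the control (6.30-fold higher). The GABA transporter gene Slc6a11 was at 1.75 FPKM in the Trrap-deleted cortex and 0.362 FPKM in the control. Neither gene is specific to interneurons. Gad1, Gad2 and Slc32a1, which make and load GABA, were not listed. Of 25 interneuron subtype markers, Nxph1 and Rbp4, a retinol-binding protein (1.15 FPKM in the Trrap-deleted cortex, 2.41 FPKM in the control), were listed, both lower, while Sst, Npy and Calb2 were not.

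The ligand of Cxcr4 was listed in the opposite direction to its receptor. Cxcl12 was at 17.4 FPKM in the Trrap-deleted cortex, against 9.21 FPKM in the control (1.89-fold higher). The ratio of Cxcl12 and that of Cxcr4 thus differed in sign, and both kept it under both rescalings of the libraries. The second Cxcl12 receptor, Ackr3, was not listed. Of 36 ligands and receptors of tangential migration 10 were listed, 5 lower and 5 higher (6 lower after rescaling to a median ratio of 0, 4 lower after rescaling to equal summed FPKM). The semaphorin receptor genes Nrp2 (10.8 FPKM in the Trrap-deleted cortex, 14.501 FPKM in the control) and Plxna3 (52.0 FPKM in the Trrap-deleted cortex, 92.9 FPKM in the control) were lower. So was the ephrin receptor gene Ephb1, at 7.08 FPKM in the Trrap-deleted cortex and 11.98 FPKM in the control. Epha4 was lower as deposited, at 62.0 FPKM in the Trrap-deleted cortex and 75.0 FPKM in the control, but not after rescaling to equal summed FPKM. The neurotrophin receptor gene Ntrk2 (18.7 FPKM in the Trrap-deleted cortex, 8.79 FPKM in the control), the neuregulin gene Nrg3 (4.21 FPKM in the Trrap-deleted cortex, 2.49 FPKM in the control) and the ephrin gene Efnb3 (23.5 FPKM in the Trrap-deleted cortex, 15.8 FPKM in the control) were higher. Gpr85 was higher as deposited, at 26.9 FPKM in the Trrap-deleted cortex and 18.5 FPKM in the control, and lower by a log2 ratio of -0.0030 after rescaling to a median ratio of 0. Erbb4, Robo1 and Robo2 were not listed.

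Nxph2, the closest relative of Nxph1 looked for, was lower as well. It was at 0.311 FPKM in the Trrap-deleted cortex, against 1.60 FPKM in the control (5.12-fold lower), with a q-value of 1.5e-08 in the authors' deposited table. Nxph3 and Nxph4 were not listed. Of 19 symbols for neurexophilins, neurexins and their partners 8 were listed, 3 lower and 5 higher, and the lower ones were Nxph1, Nxph2 and Cbln1. Nrxn2, which encodes a neurexin, was higher, at 56.2 FPKM in the Trrap-deleted cortex and 28.0 FPKM in the control. The neurexin-binding proteins Lrrtm1, Lrrtm2 and Dag1 and the cerebellin gene Cbln2 were also higher, by 1.71-fold to 2.04-fold. Cbln1, another cerebellin gene, was at 2.16 FPKM in the Trrap-deleted cortex and 4.33 FPKM in the control.

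**Figure D3:**
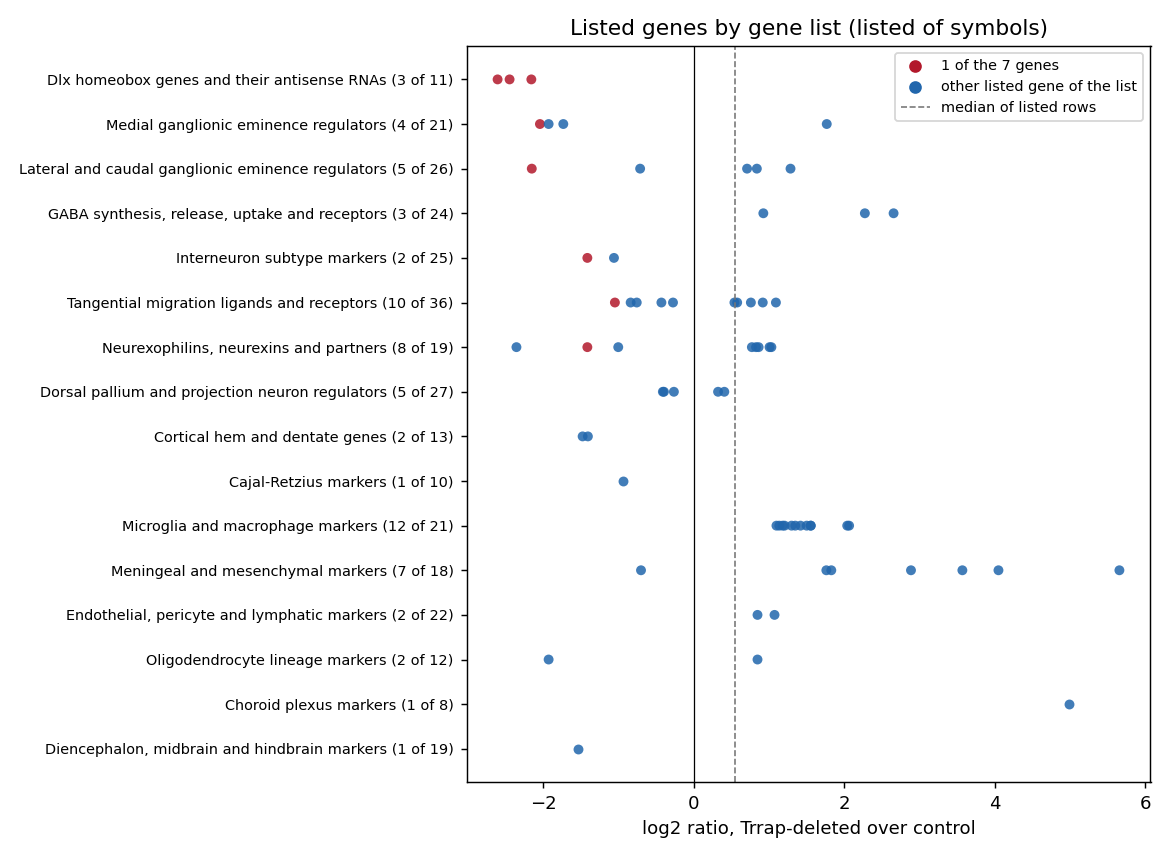
Log2 ratio of Trrap-deleted over control for the listed genes of 16 gene lists; each point is 1 gene in 1 library per genotype, red for the 7 genes and blue for others, with the number listed of the symbols looked for in brackets and the dashed line at the median of all listed rows. The 3 Dlx transcripts lie between -2.61 and -2.16, while the lists of the lateral and caudal eminences and of tangential migration hold genes on both sides of 0.

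Genes of the dorsal cortex were present at high levels in both libraries, as a check of the labelled tissue. The projection neuron gene Neurod6 was at 260 FPKM in the Trrap-deleted cortex and 312 FPKM in the control, and the proneural gene Neurog2 at 112 FPKM in the Trrap-deleted cortex and 89.6 FPKM in the control. Of 27 dorsal symbols 5 were listed, 3 lower and 2 higher (all 5 lower after rescaling to a median ratio of 0, 2 lower after rescaling to equal summed FPKM). Their log2 ratios lay between -0.41 and 0.41. Only loci called different have a ratio, and these 5 had higher control levels (37.3 to 312 FPKM) than any of the ventral and interneuron genes followed. The sizes of the ratios are therefore not compared between the dorsal genes and those genes. Among the listed dorsal genes the ratio largest in size was that of Bcl11b, a factor of subcerebral projection neurons. It was at 28.0 FPKM in the Trrap-deleted cortex and 37.3 FPKM in the control. Fezf2 and Pou3f3 were the others listed, and Emx1, Pax6 and Tbr1 were not listed.

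Markers of other cells differed between the same libraries. Of 21 microglial and macrophage markers 12 were listed and all 12 were higher, by 2.14-fold to 4.18-fold, with a summed level of 42.0 FPKM in the Trrap-deleted cortex and 16.5 FPKM in the control. The largest ratio among them was that of the Fc receptor gene Fcgr3, at 1.49 FPKM in the Trrap-deleted cortex and 0.357 FPKM in the control. Of 18 meningeal markers 7 were listed, 6 of them higher, with a summed level of 28.6 FPKM in the Trrap-deleted cortex and 22.8 FPKM in the control. Their log2 ratios ran from -0.70 for the fibronectin gene Fn1, the exception (12.2 FPKM in the Trrap-deleted cortex, 19.9 FPKM in the control), to 5.66 for the proteoglycan gene Lum (1.02 FPKM in the Trrap-deleted cortex, 0.0203 FPKM in the control). Fn1 had the highest level of these markers in both libraries, so it weighed most in the summed levels. Of 22 endothelial, pericyte and lymphatic markers 2 were listed, both higher, with the larger ratio for Pdgfrb (3.60 FPKM in the Trrap-deleted cortex, 1.71 FPKM in the control), and of 12 oligodendrocyte lineage markers 2 were listed, Olig2 lower and Cspg4 higher. Rows at 0 in 1 library were not matched to the lists, so a marker at 0 could not appear here. The Y-linked genes Eif2s3y (32.8 FPKM in the Trrap-deleted cortex, 0.111 FPKM in the control), Ddx3y and Kdm5d (3.99 FPKM in the Trrap-deleted cortex, 0.00414 FPKM in the control) were higher, and Xist was at 142 FPKM in the Trrap-deleted cortex and 313 FPKM in the control. By these transcripts the 2 libraries also differed in the sex make-up of the embryos, with both Y-linked transcripts and Xist in the Trrap-deleted library. Genotype and sex therefore cannot be told apart. The part of the differences in this paragraph in the values of the 7 genes was not tested. Trrap itself had no row, and the deletion could not be checked in its own transcript.

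Listed neighbours of the 7 genes mostly did not share their direction, but they were few and 58% of all rows were higher. Within 1 megabase of the Lhx6 locus, Rbm18, 10670 bases away, was at 51.4 FPKM in the Trrap-deleted cortex and 36.9 FPKM in the control. Ndufa8 and Gsn, on the other side of Lhx6, were higher by 1.42-fold and 3.54-fold. Near Dlx2 the listed gene was Cybrd1 (2.03-fold higher), and near Dlx5 and Dlx6as1, beside each other, it was C1galt1 (1.52-fold higher). Vash2, 707835 bases from Prox1, was lower, at 8.67 FPKM in the Trrap-deleted cortex and 18.0 FPKM in the control. The higher ratios of Rbm18 and Ndufa8, 0.48 and 0.51, lay below the median of all rows.

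A further 5 rows had the ratio most like the median of the 7. By the smallest distance in log2 ratio over the 2 libraries, among rows with 1 symbol and at least 1 FPKM in the control, these were Tes, Cd1d2, Tmem44, Gm14448 and S100a10, with distances of 0.016 to 0.056. Tmem44 was at 5.55 FPKM in the Trrap-deleted cortex and 25.2 FPKM in the control, and S100a10, an annexin partner, at 1.99 FPKM in the Trrap-deleted cortex and 8.52 FPKM in the control. Tes has a second, stronger row that was also lower (3.59-fold), and Gm14448 has a locus of 210 bases and an uncertain value. Among all rows 49 were lower by at least 4-fold, and Dlx5, Dlx2, Dlx6as1, Prox1 and Lhx6 were 5 of them, at places 10, 18, 38, 39 and 46 from the lowest ratio.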

How the data were processed

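RNA was sequenced from E14.5 mouse cortex in 2 libraries, 1 per genotype, from 2.5 µg of total RNA each, per the labels' protocols. TopHat2 and mm9 are named in the submitters' processing notes; for counting and testing, no software is named in the sources used here. The deposited table has the column layout that Cuffdiff writes, and its 2 value columns were read as FPKM on that ground. The p-value and q-value of each row are those deposited by the authors, from their own test; only rows marked significant are present (highest q-value 0.0500). The fold-change column deposited by the authors, a log2 score with a placeholder where 1 library is at 0, equalled the log2 ratio computed here to within 1.2e-05; the deposited test score was not used. Depth is unknown, and the FPKM values come with no estimate of their counting error.

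Log2 ratios were computed without a pseudocount in Python 3.11.15 with pandas 2.3.3 and NumPy 2.4.6, and the computation was tested on simulated data. Gene lists (17, with 308 symbols, of which 69 were listed) and the 7 genes were chosen with earlier results of these data known. The text names the 7 genes, the listed genes of the lists on the ventral telencephalon, GABA, interneurons, migration and neurexophilins, neighbours within 1 megabase, and the 5 rows of most like ratio (some listed genes are counted but not reported by name here); for other lists it names the gene with the ratio largest in size and a few examples chosen after their values were seen. Rows naming several genes (59), or at 0 in the control (4) or in the Trrap-deleted library (1), were not matched to lists. Starts were moved to 1-based counting. GENCODE M21 and RefSeq, on GRCm38, served for names, strands, overlaps and promoter sequences; no coordinates were converted. Alternatives were 2 rescalings, 2 pseudocounts, a minimum of 1 FPKM and a stricter q-value.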

Additional observations from a re-analysis of the deposited data

How the results depend on the processing

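The directions of the 7 genes could not turn under the alternatives tried: their ratios were all larger in size than either rescaling, a pseudocount cannot change a sign, and none of the 7 fell under the minimum of 1 FPKM in the higher library. At a deposited q-value under 0.01, 6 of them remained listed, and Dlx5 did not. Their median log2 ratio of -2.15 became -2.70 after rescaling to a median ratio of 0 over all rows (a shift of -0.54) and -1.81 after rescaling to equal summed FPKM (a shift of 0.35). A pseudocount of 0.1 gave -2.02 and one of 1 gave -1.12, since pseudocounts shrink the ratios of weak genes by construction. The fold counts moved too. After rescaling to equal summed FPKM, only Dlx2 (-2.10) and Dlx5 (-2.26) were at least 4-fold lower, and Cxcr4 (-0.70) was under 2-fold. With a pseudocount of 1 none of the 7 was 4-fold lower, and Nxph1 (-0.95) and Cxcr4 (-0.99) were under 2-fold. Of 69 listed genes in the lists, 3 changed sign under the first rescaling, Gpr85 (-0.0030), Neurog2 (-0.22) and Pou3f3 (-0.14), and 2 under the second, Epha4 (0.070) and Neurod6 (0.082). No paired analysis was possible because each genotype had 1 library, and for the same reason no library could be left out. Precision is limited by 1 library per genotype and by an unknown depth.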

Other observations

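Wnt8b, Rspo2, Lhx9 and Nhlh2, looked for as markers of other regions or cells, were also listed lower, and Ttr was higher. Wnt8b, a signal of the cortical hem, was at 1.57 FPKM in the Trrap-deleted cortex and 4.38 FPKM in the control, and Rspo2, an enhancer of Wnt signalling made there, at 1.21 FPKM in the Trrap-deleted cortex and 3.22 FPKM in the control. They were the 2 listed of 13 hem and dentate symbols. These symbols did not include Prox1, which was counted with the lateral and caudal eminences. Lhx9, a LIM-homeodomain gene of the thalamus and the only listed gene of 19 for the diencephalon, midbrain and hindbrain, was at 4.72 FPKM in the Trrap-deleted cortex and 13.7 FPKM in the control. Nhlh2, the only listed gene of 10 for Cajal-Retzius cells, was at 6.41 FPKM in the Trrap-deleted cortex and 12.3 FPKM in the control. The choroid plexus gene Ttr was higher, at 3.31 FPKM in the Trrap-deleted cortex and 0.104 FPKM in the control, at a locus of 116251 bases whose value is uncertain.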
